A study of Mus musculus with 7 samples.

Results

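Chaperones, proteasome subunits and ubiquitin enzymes keep the proteins of a cell folded or remove them, and 22 of their genes stand among the 769 gene models that the authors of this series listed as differing between young and old megakaryocyte progenitors. These cells are the bone marrow progenitors committed to megakaryocytes, which shed platelets. The members were selected by symbol from that list (Hsp without Hspa9, Dnaj, Cct with a digit, Tcp1, Psm, Usp, Ube2 and Ube3), and the list itself was selected on the authors' adjusted p under 0.1 for old against young. The fold changes below are therefore a description of genes chosen by the same contrast, and no test was made on them.

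The young group was 3 libraries from mice aged 3 months and the old group 4 libraries from mice labelled 18 to 20 months in one field and 20 months in another. All mice were offspring of Flt3-Cre and mTmG parents, so cells whose ancestors expressed the Flt3-driven recombinase turn from Tomato to GFP. The series' design text calls the animals WT. The sorted cells lacked lineage markers and Sca1, carried cKit, CD150 and CD41, and were taken as Tomato-positive or GFP-positive fractions. The 3 young titles share 1 prefix and the old titles carry 2 prefixes with 2 libraries each, so age and prefix cannot be fully told apart. The labels do not say what the prefixes stand for. If they mark the sorted reporter fraction, the young libraries may be of 1 fraction and the old ones of both. The column of old means was taken as old because its name shares the ending of both old prefixes, but it matches neither exactly, so whether it pools all 4 old libraries is not known. Strain was given as C57BL/6 for 6 libraries and C57BL/7 for 1 old library. No label ties a library to its own mouse, and the spread behind the authors' standard errors (SE) may be technical.

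A new protein chain is first held by HSP70 chaperones with their DnaJ partners and passed on, where needed, to HSP90 or to a closed chaperonin chamber. Proteins that cannot be folded are tagged with ubiquitin by E1, E2 and E3 enzymes, trimmed by deubiquitinases and degraded by the proteasome, whose regulatory particle recognises and unfolds the substrate and whose core cuts it. Megakaryocytes depend on these systems: proteasome inhibitors lower platelet counts, and the endoplasmic reticulum HSP90 is required to fold platelet integrins.

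Listed members were lower in old with 1 exception, although none was called lower once fold changes were recentred on abundant listed genes, as described below. Of the 22 members, 21 had a lower old than young mean, in the authors' deposited table, and Usp11 was the exception. At the authors' adjusted p under 0.05, 12 members were called lower (Tcp1, Hspa4, Hsp90b1, Dnaja2, Dnajc11, Dnajc19, Psmd2, Psmd3, Psmd6, Psmd12, Usp5 and Usp14) and 1 was called higher (Usp11). Over the 11778 gene models behind the authors' adjustment, 2.86% were listed as lower and 3.67% as higher, and 1.57% were called lower and 2.56% called higher. GENCODE M21 annotates 230 protein-coding genes whose symbols match the rule, of which the 22 members are 9.57%. How many of the other genes entered the authors' test is unknown, and a gene outside the list has no value here. Since listing used this contrast, nothing is read from these shares. The call limit fell between Psmd6 (adjusted p = 0.0487) and Hspd1 (adjusted p = 0.0534), and the least certain member, Psmg4, stood at 0.0992 in the authors' deposited table.

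The deposited values are group means of normalized counts, with no value per library, so the overlap between young and old libraries cannot be given. Each comparison rests on the authors' log2 fold change (old over young) and its SE. Depth per library is unknown. In sorted bulk RNA, less transcript per cell and fewer cells that carry it cannot be told apart. Normalized counts are also relative to the other RNA in the library, and listed markers of other cell types were higher in old. Of 16 neutrophil and monocyte markers, 14 were called higher, and their summed mean was 5087 in young and 95168 in old in the authors' deposited table, with none at 0 in young. Of 6 erythroid markers 2 were called higher (sum 977 and 6431), of 5 mast cell, basophil and eosinophil markers 4 (sum 27.2 and 1398, Prg3 at 0 in young) and of 5 lymphoid markers 2 (sum 3.26 and 42.4). Among 10 megakaryocyte progenitor markers only Slamf1, which encodes CD150, was listed (79.3 and 228, adjusted p = 0.0856), in the authors' deposited table, and the other 9 have no value here. Ly6a, which encodes the Sca1 that the gate excluded, was called higher in old (23.5 in young and 98.8 in old, log2 fold change 2.08, SE 0.67, adjusted p = 0.0499), per the authors' deposited table, which goes against the labelled gate at the level of RNA. Whether other cells or the progenitors themselves carried these marker transcripts was not tested, nor was their part in the members' values.

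**Figure D1:**
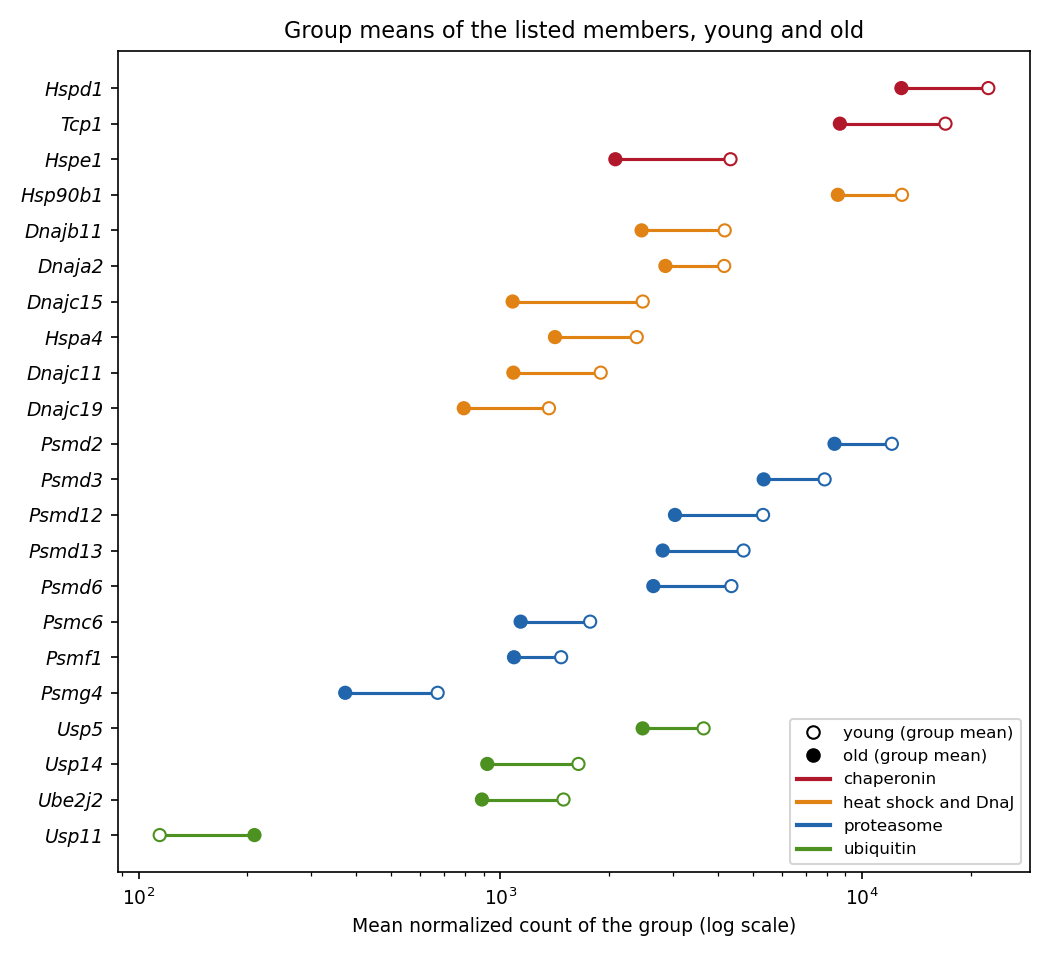
Mean normalized count of the young group (open circles) and the old group (filled circles) for the 22 listed members, on a log axis, coloured by subgroup; the table gives no spread per group. The old circle lies left of the young one for 21 members and right of it for Usp11, before any recentring of the fold changes.

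Chaperonins, the closed folding chambers, had the highest median young level of the 4 subgroups and the lowest median ratio of old to young, although Dnajc15 of the heat shock and DnaJ subgroup had a lower ratio than any of them and Hspe1 was below several members of other subgroups in level. Their 3 listed members were Tcp1, a subunit of the cytosolic chamber CCT that folds actin and tubulin, and Hspd1 and Hspe1, the HSP60 barrel and HSP10 lid of the mitochondrial chamber. Tcp1 (chromosome 17, 12915701 to 12925067, plus strand, mm10) had a mean of 17010 normalized counts in young and 8684 in old in the authors' deposited table. The old mean is 51.1% of the young one (log2 fold change -0.97, SE 0.24, adjusted p = 0.00461), per the authors' deposited table, where Tcp1 was the 1 chaperonin member called. Only Hspd1 and 1 other listed gene model had a higher young mean than Tcp1 in the authors' deposited table.

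Hspd1 and Hspe1 were listed just above the call limit. Hspd1 (chromosome 1, 55077835 to 55088243, minus strand) had 22341 normalized counts in young and 12848 in old, or 57.5% (log2 fold change -0.80, SE 0.26), in the authors' deposited table. Hspe1 (chromosome 1, 55088132 to 55091307, plus strand) had 4329 in young and 2080 in old, or 48.0% (log2 fold change -1.06, SE 0.35, adjusted p = 0.0545), per the authors' deposited table. Per kilobase of annotated exon the young level was 9220 for Hspd1, 5948 for Tcp1 and 5593 for Hspe1, so on this scale the lid and the barrel of the mitochondrial chamber lay closer together than on the scale of counts. The other 8 annotated genes matching Cct with a digit, which include the partner subunits of Tcp1 in the CCT ring, were not listed.

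The mitochondrial pair is transcribed in opposite directions from a shared start region. That region holds the only heat shock elements with 3 or more units among the 18 members with a promoter window. A heat shock element is an array of GAA and TTC units read by heat shock factors. The stretch below comes from the RefSeq promoter table (GRCm38.p6) and has the units in capitals. It lies at chr1:55088053-55088082 on the plus strand, 95 to 66 bases before the Hspe1 start in that table. It is within the annotated span of Hspd1 and overlaps 1 feature annotated as untranslated exon.

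Hspe1 and Hspd1 shared start region: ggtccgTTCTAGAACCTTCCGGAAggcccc

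The array with 3 units was present in 2 of the 18 members with a promoter window, which are these 2 genes and the same bases, against 0.662% of 27025 genes in windows of 300 bases (both strands searched). The 8-base words GAANNTTC and TTCNNGAA, which overlap it, were found in 3 and 2 members and in 9.04% and 9.60% of all genes. Among the 265 genes listed as lower that had a window, the shares of these words were 9.06% and 7.55%, and that of the array 0.755%. The third member with GAANNTTC was Psmf1. These matches are letters in a window and do not show binding. The 2 genes also share 112 annotated exon bases on opposite strands, and strand use in counting is not given, so some reads may be shared. Hspd1 has 3 near copies among annotated transcripts (at least 90% identity over at least 50% of its transcript), all processed pseudogenes. Hspe1 has 1 near copy, which is annotated as protein-coding. Tcp1 overlaps 571 exon bases of Acat3 on the other strand, which was itself called lower in the authors' deposited table (2505 and 1439, log2 fold change -0.80, SE 0.15).

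The heat shock and DnaJ subgroup had 7 listed members of 72 annotated genes (9.72%), all lower in old, of which 5 were called. Hspa4, a large HSP70 relative that recharges HSP70 with nucleotide, had 2384 normalized counts in young and 1416 in old in the authors' deposited table. This change (log2 fold change -0.75, SE 0.17, adjusted p = 0.00190) had the smallest adjusted p of the subgroup in the authors' deposited table. Hsp90b1, the HSP90 of the endoplasmic reticulum (chromosome 10, 86690209 to 86705509, minus strand), had 12896 in young and 8574 in old, or 66.5% (log2 fold change -0.59, SE 0.18, adjusted p = 0.0361), per the authors' deposited table. Dnaja2, a cytosolic HSP70 partner, had 4159 in young and 2861 in old (log2 fold change -0.54, SE 0.17) in the authors' deposited table. The ratio of old to young was thus 0.589 in the median member of the subgroup, and Dnaja2 had its highest ratio, 0.688.

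Mitochondrial DnaJ proteins made up 3 of the 5 listed DnaJ genes. Dnajc11, which sits with the complex that shapes the inner membrane folds, had 1895 in young and 1087 in old (log2 fold change -0.80, SE 0.25, adjusted p = 0.0395), per the authors' deposited table. Dnajc19, a J-protein of the protein import motor, had 1363 in young and 793 in old (log2 fold change -0.78, SE 0.25, adjusted p = 0.0482), per the authors' deposited table. Its relative Dnajc15 had 2476 in young and 1082 in old, or 43.7%, the lowest ratio of any member, but also the largest SE (log2 fold change -1.20, SE 0.43, adjusted p = 0.0857), per the authors' deposited table. With Hspd1 and Hspe1, the 5 mitochondrial members had ratios from 0.437 to 0.582 with a median of 0.573. The 3 endoplasmic reticulum members (Hsp90b1, Dnajb11 and Ube2j2) had a median ratio of 0.595, and the 14 members of cytosol and nucleus, Usp11 among them, 0.625. The compartments were assigned from general knowledge after the values were known, and the differences between them were not tested.

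Hsp90b1 and Dnajb11, both of the endoplasmic reticulum, had the most CCAAT boxes, the sites of the factor NF-Y, among the 18 members with a promoter window. Dnajb11, a DnaJ partner of the reticulum's HSP70, had 4172 in young and 2458 in old (log2 fold change -0.76, SE 0.26, adjusted p = 0.0673), per the authors' deposited table. The stretches below are from the RefSeq promoter table, with CCAAT or its reverse complement in capitals. They lie at chr10:86705510-86705694 on the minus strand and chr16:22857670-22857844 on the plus strand, and leave out bases that are annotated as untranslated exon.

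Hsp90b1 upstream region: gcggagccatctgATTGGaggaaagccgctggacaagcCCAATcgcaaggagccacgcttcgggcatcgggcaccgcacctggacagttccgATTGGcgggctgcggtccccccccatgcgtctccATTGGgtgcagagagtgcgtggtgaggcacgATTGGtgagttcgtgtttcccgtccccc

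Dnajb11 upstream region: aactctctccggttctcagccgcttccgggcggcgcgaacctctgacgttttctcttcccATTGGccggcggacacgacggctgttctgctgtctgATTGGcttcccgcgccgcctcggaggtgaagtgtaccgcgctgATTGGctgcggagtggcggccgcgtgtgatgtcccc

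Over the whole window of 300 bases Hsp90b1 held 6 CCAAT boxes and Dnajb11 held 5, while no other member with a window held more than 2. At least 1 box was present in 6 of the 18 members with a window, against 41.1% of all genes and 46.8% of the 265 genes listed as lower that had a window. In Hsp90b1, 2 boxes belong to the endoplasmic reticulum stress element (CCAAT and CCACG with 9 bases between them), a motif that was added after the boxes had been seen. It was found in 1 of the 18 members, in 0.137% of all genes and in 0.755% of those 265. The core of the antioxidant response element, TGACNNNGC, was present in 4 members (Dnaja2, Psmd12, Psmc6 and Tcp1). Its share was 13.99% of all genes and 18.9% of the 265 genes listed as lower. The E-box CACGTG was present in 1 member (Hspd1), in 8.09% of all genes and in 14.7% of the 265. Of the 18 members, 7 held none of the motifs planned, and Usp5, Usp14, Psmd3 and Dnajc11 were not in the table.

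Proteasome members were 8 of 50 annotated genes (16%), all lower in old. Of the 8, 6 belong to the regulatory particle that caps the core, whose list holds 20 genes. The lid of this particle is a horseshoe of related scaffold subunits. Of these, Psmd12 (chromosome 11, 107479484 to 107504362, plus strand) had 5325 normalized counts in young and 3040 in old, or 57.1% (log2 fold change -0.81, SE 0.22, adjusted p = 0.0129), per the authors' deposited table. Psmd3 had 7881 in young and 5348 in old (log2 fold change -0.56, SE 0.16, adjusted p = 0.0197), also in the authors' deposited table. Psmd6 followed with 4354 in young and 2649 in old (log2 fold change -0.72, SE 0.23) in the authors' deposited table. Psmd13, a further scaffold subunit, had 4704 in young and 2812 in old without a call (log2 fold change -0.74, SE 0.26, adjusted p = 0.0847), per the authors' deposited table. It overlaps 342 exon bases of Sirt3 on the other strand.

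In the base of the particle, the listed genes were Psmd2 and Psmc6. Psmd2, the large base subunit on which ubiquitin receptors and Usp14 dock, had 12090 in young and 8394 in old, or 69.4% (log2 fold change -0.53, SE 0.16, adjusted p = 0.0395), per the authors' deposited table. Psmd2 has 2 near copies among annotated pseudogenes, 1 of them covering 98.2% of its transcript. Psmc6, one of the ATPases that unfold the substrate, had 1772 in young and 1138 in old (log2 fold change -0.64, SE 0.21, adjusted p = 0.0567), per the authors' deposited table. Outside the particle, Psmf1, a regulator that binds the core, had 1473 in young and 1091 in old, or 74.1%, the mildest of the lower members (log2 fold change -0.43, SE 0.16, adjusted p = 0.0890), per the authors' deposited table. The core assembly chaperone Psmg4 had the lowest level of the proteasome members, 671 in young and 373 in old (log2 fold change -0.85, SE 0.31), in the authors' deposited table. No gene of the list of 15 core subunits and none of the 5 immunoproteasome and PA28 genes was listed. Whether core and regulatory particle differ was not tested, since unlisted genes have no values.

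The ubiquitin subgroup had 4 listed members of 97 annotated genes, 3 of them lower in old and 1 higher. Usp14, the deubiquitinase that works on the proteasome itself (chromosome 18, 9993066 to 10045119, minus strand), had 1645 in young and 920 in old, or 56.0%, in the authors' deposited table. The change of Usp14 (log2 fold change -0.84, SE 0.17, adjusted p = 0.000225) had the smallest adjusted p of all 22 members in the authors' deposited table. Usp14 shares 2169 exon bases with Thoc1 on the opposite strand, the longest overlap of any member, and Thoc1 was not listed. Usp5, which takes apart free ubiquitin chains, had 3648 in young and 2475 in old, or 67.8% (log2 fold change -0.56, SE 0.16, adjusted p = 0.0228), per the authors' deposited table. Ube2j2, an E2 enzyme anchored in the endoplasmic reticulum that serves the removal of misfolded proteins there, had 1495 in young and 890 in old (log2 fold change -0.75, SE 0.27, adjusted p = 0.0960), per the authors' deposited table.

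Usp11, a mainly nuclear deubiquitinase, ran the other way. Its mean was 114 normalized counts in young and 209 in old, which is 183% of the young mean (log2 fold change 0.87, SE 0.24, adjusted p = 0.0157), per the authors' deposited table. It was the least abundant member: its young mean was under that of every other member, and per kilobase of exon it was 33.0 against 340.5 for the next lowest, Dnajc19. Usp11 lies on the X chromosome (20703906 to 20720539, plus strand) and its exons overlap those of no other annotated gene.

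Across subgroups the order by young mean differed from the order by ratio. The median young mean was 17010 normalized counts for the chaperonins, 4529 for the proteasome, 2476 for heat shock and DnaJ, and 1570 for the ubiquitin members. The median ratio of old to young was lowest for the chaperonins (0.511), followed by heat shock and DnaJ (0.589), the proteasome (0.625) and the ubiquitin members (0.637). Median log2 fold changes ran in the same order, at -0.97, -0.76, -0.68 and -0.65. The median SE also fell in this order, at 0.26, 0.25, 0.22 and 0.21. A gene model with a larger SE needs a larger change to be listed, and the part of the listing in this order was not tested. Each step between neighbouring subgroups in this order, that from the chaperonins included, was smaller than the median SE of either subgroup. The chaperonin medians are the values of Tcp1, 1 of 3 members. The differences between subgroups were not tested. Summed over all 22 members, the group mean was 118201 in young and 71222 in old, a ratio of 0.603.

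The fold changes of the lower members differed little from each other in relation to their errors. The 95% Wald interval (from the authors' SE) of the log2 fold change held the range from -0.74 to -0.51 in every one of the 21 lower members, with its ends set by Psmf1 and Usp14. Expressed as a ratio, that range is 0.599 to 0.705. The same range lay within the interval of 275 of the 316 other gene models listed as lower (87.0%). All of these gene models were listed at adjusted p under 0.1, which leaves out small changes. How far this listing sets the shared range was not tested. Since members share libraries, their errors are not independent and this is a description.

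**Figure D2:**
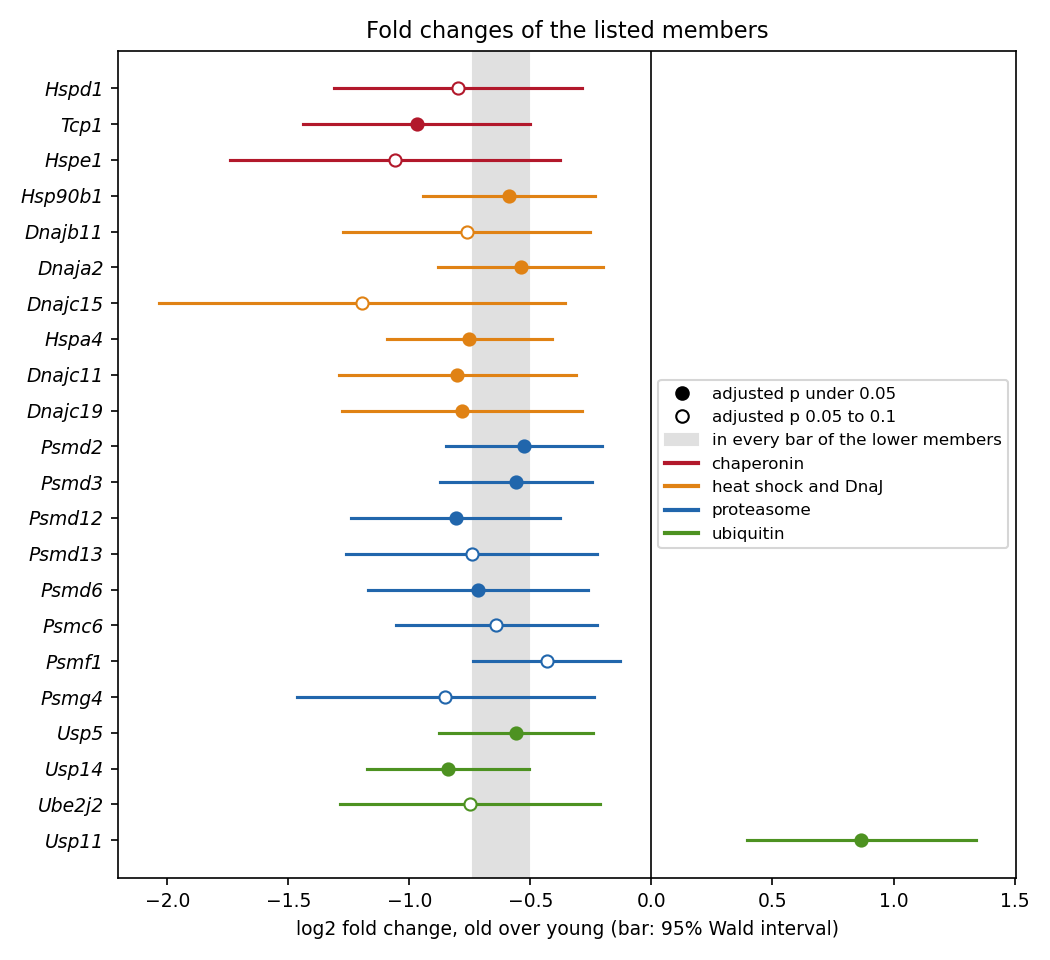
log2 fold change of old over young for each member with bars for the 95% Wald interval from the authors' SE; filled points passed the authors' adjusted p under 0.05 and colours give the subgroup. The grey band from -0.74 to -0.51 lies within the bar of each of the 21 lower members, and all 21 would sit around 0 if fold changes were recentred by the median of abundant listed rows.

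Other listed genes of similar level had about the same fold change. Of the 278 listed gene models with a young mean of at least 1000, 265 (95.3%) were lower in old, with a median log2 fold change over all 278 of -0.67. The 20 members in this range were all lower, with a median of -0.75 (quartiles -0.80 and -0.58). For the 245 other lower gene models in this range the median was -0.68 (quartiles -0.81 and -0.56). Both sets passed the same listing limit with a similar median SE, 0.23 for the 20 members and 0.21 for the 245. The part of that limit in the likeness was not tested. Under a young mean of 1000, 72 of 491 listed gene models (14.7%) were lower, and of the 2 members there, Psmg4 was lower and Usp11 higher.

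When every fold change was recentred by -0.67, the median of the 278 abundant gene models, no member was called lower and Usp11 was still called higher. The split of 12 lower and 1 higher became 0 and 1, and over all listed gene models 185 lower and 302 higher became 0 and 436. The recentred values of the 21 lower members ran from -0.52 (Dnajc15) to 0.24 (Psmf1), and 14 of them were below 0. Because 265 of those 278 gene models were lower, the shift removes lower calls by construction, and it does not show which scaling is right.

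**Figure D3:**
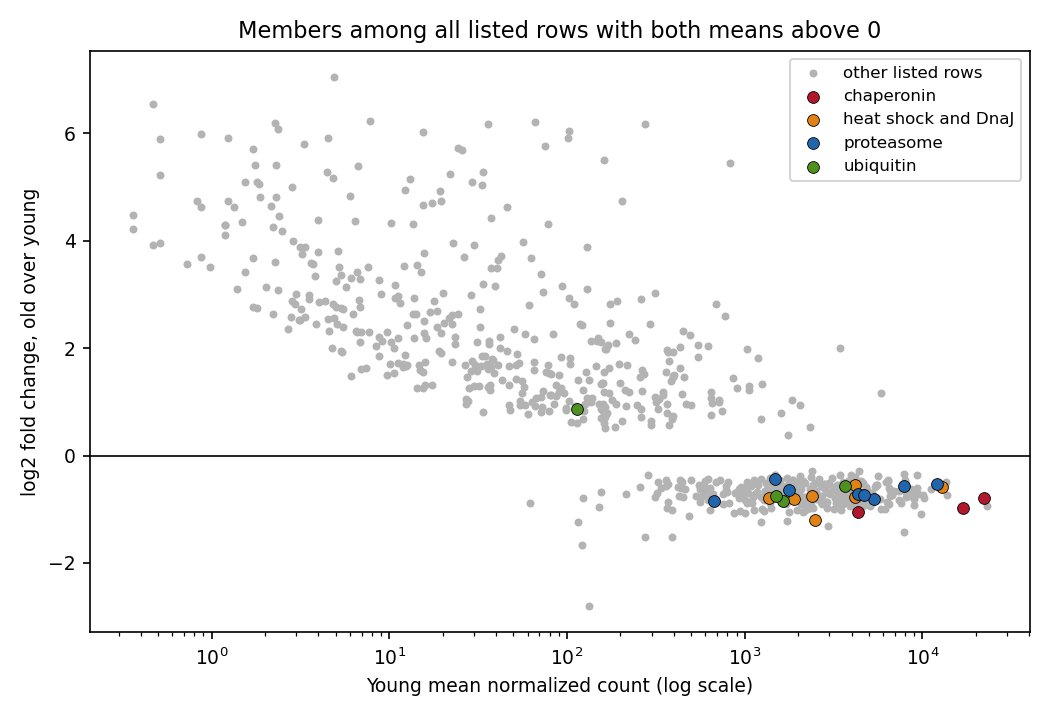
log2 fold change of old over young against the young mean normalized count (log axis) for the 757 listed rows with both means above 0; members are coloured by subgroup and other rows are grey. The lower members lie within the band of abundant lower rows, Usp11 lies among the rarer higher rows, and that band would centre on 0 after recentring by -0.67.

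Other proteostasis genes outside the naming rule were examined through 18 lists. Of 10 mitochondrial chaperones 6 were listed, with 4 called lower and 0 called higher. Besides members these were Hspa9, the mitochondrial HSP70 (10053 in young and 6047 in old, log2 fold change -0.73, SE 0.17, adjusted p = 0.00278), per the authors' deposited table, and its exchange factor Grpel1 (4640 and 2410, log2 fold change -0.95, SE 0.29). Trap1, the mitochondrial HSP90, was also called (3744 and 2486, log2 fold change -0.59, SE 0.14) in the authors' deposited table. After recentring by -0.67 no listed gene model was called lower, so these calls end too.

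Among cytosolic helpers, Pfdn1 was the 1 listed gene of 6 prefoldin genes, which hand actin and tubulin to CCT, and was called lower (1951 and 1237, log2 fold change -0.66, SE 0.21) in the authors' deposited table. Of 24 co-chaperones of HSP90 and HSP70, Ahsa1 (7980 and 5550, log2 fold change -0.52, SE 0.18) and Ppid (4651 and 2667, -0.80, SE 0.28) were listed without a call in the authors' deposited table. From a list of 10 endoplasmic reticulum chaperones, Creld2 was the 1 listed gene (3208 and 1848, log2 fold change -0.80, SE 0.26) in the authors' deposited table. This list leaves out Hsp90b1 and Dnajb11, members of its compartment that were listed too. The mitochondrial list holds the members Hspd1, Hspe1 and Dnajc19 but leaves out Dnajc11 and Dnajc15. No heat shock factor of 4, no small heat shock protein of 10 and none of the 4 regulators of proteasome genes was listed.

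The list of ubiquitin and E1 genes split by direction, with 3 of its 12 genes listed. Uba1, the main E1 enzyme that activates ubiquitin, was called lower by a small amount (5627 in young and 4315 in old, log2 fold change -0.38, SE 0.11, adjusted p = 0.0235), per the authors' deposited table. Uba2, a subunit of the E1 for the ubiquitin relative SUMO, was called lower (6692 and 4186, log2 fold change -0.68, SE 0.19) in the authors' deposited table. Uba7, the E1 for the interferon-induced ubiquitin relative ISG15, was called higher in both of its gene models (622 and 2545, log2 fold change 2.03, SE 0.47; 78.5 and 252, log2 fold change 1.69, SE 0.51) in the authors' deposited table. Of 21 other deubiquitinases and COP9 signalosome subunits, Cops6, a noncatalytic subunit of that complex, was listed without a call (6734 and 4232, log2 fold change -0.67, SE 0.23) in the authors' deposited table, and none of 13 cullin ligase genes or of 13 genes of p97 and ubiquitin shuttling was listed.

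**Figure D4:**
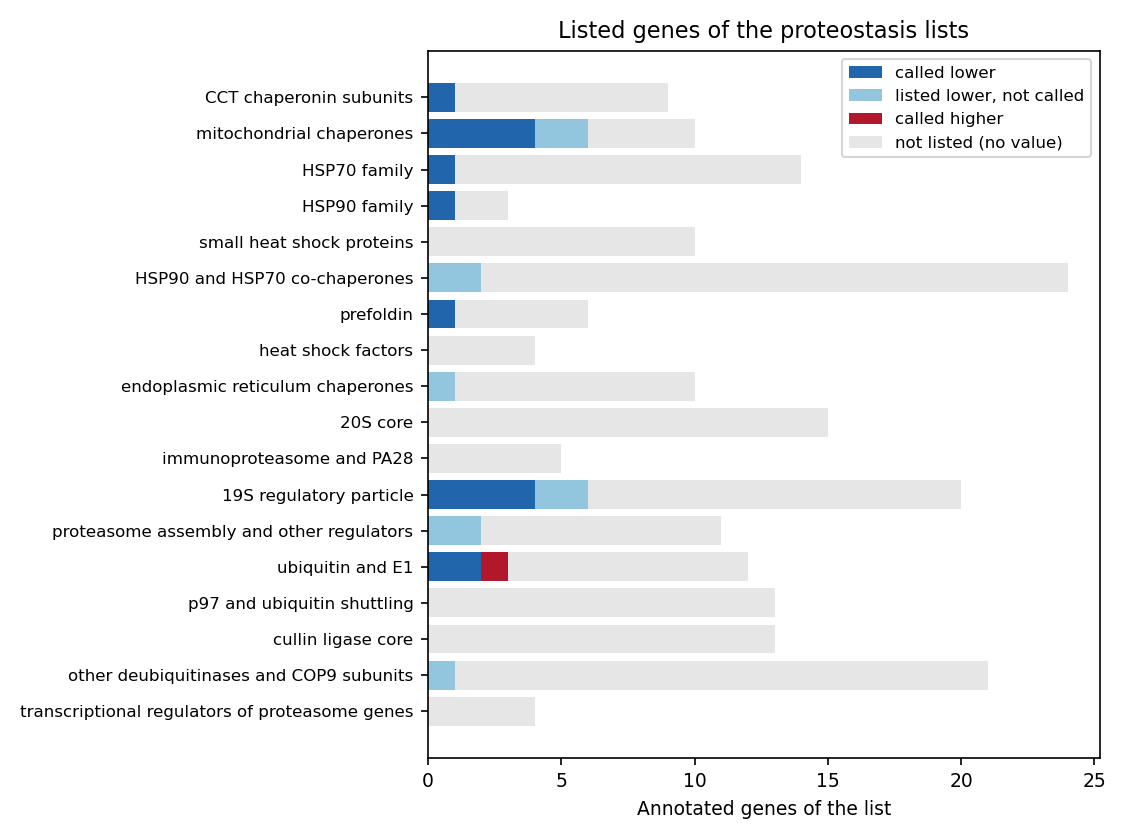
Number of annotated genes in each of the 18 proteostasis lists, divided into genes called lower, listed lower without a call, called higher and not listed. The mitochondrial chaperones (6 of 10) and the 19S regulatory particle (6 of 20) have the most listed genes, Uba7 is the one listed gene that was higher, and after recentring by -0.67 none would be called lower.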

How the data were processed

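Sorted bone marrow cells of 3 young and 4 old libraries were profiled by RNA-seq, from Trizol-extracted total RNA with a NEBNext Ultra kit (labels' protocols). The submitters' processing notes name mm10, STAR, Bowtie2 and DESeq. Their versions, the counting and the strand use were not given in the sources used here. A single table deposited by the authors holds their comparison. Its group means are the authors' normalized counts, a scaled signal per gene model. Per the file headers it also holds the log2 fold change with its SE, the Wald score and raw and adjusted p-values. A mean over 14 samples, some outside these 7 libraries, was not used, but the authors' SE may rest on those samples.

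From the deposited p-values, 11778 tested gene models were recovered as the most frequent value of adjusted p times rank over p (checked on generated p-values). A call is the authors' adjusted p under 0.05. For members, the ratio of the group means gave the deposited log2 fold change to within 0.0032. Exon overlaps and union exon lengths came from GENCODE M21 (mm10), near copies from BLAST 2.17.0, and promoters from RefSeq (GRCm38.p6; 250 bases before to 50 after each start; 18 of 22 members matched by symbol). Recentred rows were called at the largest p among the original calls. Every member was named with both means; the 3 smallest adjusted p of each subgroup and the largest changes were to have full statistics. The members, lists and motifs were chosen with earlier results of these data known.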

Additional observations from a re-analysis of the deposited data

How the results depend on the processing

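At an adjusted p limit of 0.01, 3 members were called lower and 0 higher, and at 0.1 these counts were 21 and 1. With fold changes recentred, 0 members were called lower, and the median log2 fold changes became -0.30 for the chaperonins, -0.092 for heat shock and DnaJ, -0.0074 for the proteasome and, with a change of sign, 0.016 for the ubiquitin members. With Hspa9 and the other list genes added (34 gene models), 18 were called lower and 3 higher, the 2 added higher calls being the gene models of Uba7. Of 33 values recomputed under alternatives, 24 stayed within 1.5 times the reported count or within the median SE of the reported median. Part of the 24 could not move, so this count does not measure robustness. A filter at a mean of 50 over both groups removed no member. The log2 ratio of the group means nearly repeats the deposited fold change. Also among the 24, and chosen after seeing the data, was leaving out members whose exons overlap another coding gene. This left 9 lower calls and 1 higher call and no chaperonin. No paired analysis was possible because the deposited table holds group means only. For that reason the omission of single libraries and separate fits for the 2 old title prefixes were not run. Depth per library is unknown, so no counting limits were set.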
